A study of Sus scrofa with 90 samples.

Results

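Translation of messenger RNA is followed here through the features listed under 6 genes of the ribosome and its surroundings, RPL11, RPL10A, RPS20, RACK1, EIF4A3 and TPT1, in pig muscle injected with propylene glycol. The 6 genes were chosen with earlier results of these data known, so counts of their calls describe them and are no test. Their features were then taken by annotation: each carries a single symbol, that of one of these genes (RACK1 was formerly GNB2L1). Each also has a value in every column of the deposited table. This gave 11 of the 1908 features with complete values, and 6 of the 121 genes that such features name. The array lists 16 features for the 6 genes, and the other 5 (1 of RACK1, 1 of RPL11, 1 of RPS20 and 2 of TPT1) have no complete values and were not analysed here. RPS20 has 3 features with values, RPL11, RACK1 and TPT1 have 2 each, and RPL10A and EIF4A3 have 1 each. Each feature is given by its gene and its number on the array's feature list, because features of one gene are separate spots and did not behave alike.

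RNA came from the Longissimus dorsi, a back muscle, of 10 piglets (pigs C to L). Each piglet was injected in the muscle with propylene glycol, a solvent in which injected drugs are dissolved, at several times before sampling, and a site without injection served as its control. The groups are 10 controls and lesions sampled after 6 h (10 samples), 2 d (10), 7 d (9, without pig J) and 21 d (9, without pig L). No strain, age or sex is used here, all groups come from the same animals, and no site received an injection of another liquid, so the liquid and the needle cannot be told apart. A lesion holds whatever cells were there, and in such samples fewer cells of a type and less RNA per cell cannot be told apart.

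Ribosomes are built from ribosomal RNA and a large set of proteins. RPL11 and RPL10A belong to the large subunit, which joins amino acids, and RPS20 belongs to the small subunit, which reads the message. RACK1 is a scaffold protein that sits on the small subunit and binds signalling proteins such as protein kinase C. EIF4A3 is an RNA helicase and a core part of the exon junction complex, which marks spliced messages before they are translated. TPT1, the translationally controlled tumour protein, is an abundant protein whose own message, like those of ribosomal proteins, is known in mammalian cells for translation that depends on growth signals. In muscle, making ribosomes is part of growth and of rebuilding fibres after damage.

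Some facts about the arrays come before the results. The values are logarithms of hybridisation signal of unstated base, so differences are stated in log units and not as folds. The 6 h array of pig F had r = 0.240 with the average of all others as listed, and r = 0.739 with its list moved by 384 places, so its values do not stand beside their own features. It was left out, which leaves 47 arrays, and results that change when it is put back are marked. In the other 47 arrays r was at least 0.718, with the lowest in the 21 d array of pig J. One of the columns of the 6 h lesion of pig J is a copy of the control of pig I and was also left out. The SD of the table values within an array averaged 0.976 in the 10 controls, 0.744 in the 9 lesions of 6 h, 0.805 in the 10 of 2 d, 0.607 in the 9 of 7 d and 0.643 in the 9 of 21 d. Values were quantile-normalized between arrays.

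Symbols need care on this array. The muscle markers listed for the check of the tissue had 42 features for 7 genes, and the median of their levels was at the 55.5th percentile of all features, from -0.443 to 2.37 log units. So the labelled tissue could not be checked by level, since genes known to be abundant in muscle lay near the middle of the array. Of the markers of fibroblasts and matrix 1 of 8 genes was measured (FN1, -0.18 at 7 d against control, adjusted p = 0.19 by limma), and of those of endothelium 1 of 3 (PECAM1, -0.06, adjusted p = 0.695 by limma). None of the listed markers of neutrophils, macrophages, lymphocytes, adipocytes, satellite cells and regeneration or erythrocytes was among the tested features. The part of these cells in the results was not tested. Of the 42 muscle features, limma called 12 lower and 4 higher at 7 d than in control, with a median difference of -0.05 and a range from -0.59 (MYH7 feature 4799, a slow myosin) to 1.15 (MYLPF feature 7944, a myosin light chain). At 6 h 3 were called lower and 4 higher, at 2 d 0 in either direction, and at 21 d 6 lower and 3 higher. CKM feature 5072, the brightest of them, was at -0.37 at 7 d (adjusted p = 0.000321 by limma). The part of muscle RNA in the results was not tested either. The 6 pairs of member features that share a symbol hardly varied together (values at the end of the results), and such pairs of other genes were not summarised. Whether the symbols belong to the feature numbers of the value table was not tested and could not be settled here. Every gene name here means a feature bearing that symbol.

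The members differed widely in level. RPS20 feature 5054 had the highest mean over all arrays, at 2.31 log units (percentile 97.6 of the 1908 features), followed by RPL10A feature 6515 at 1.74 (percentile 94.2) and TPT1 feature 5773 at 1.47 (percentile 91.6). EIF4A3 feature 6527 at 1.27, RPS20 feature 5350 at 1.27 and RACK1 feature 6653 at 1.17 came next, at percentiles from 87.3 to 89.3. RPL11 feature 5837 at 0.466, RPL11 feature 6282 at 0.352 and RACK1 feature 5048 at 0.170 were nearer the middle. TPT1 feature 5959 at 0.0446 was at percentile 48.7, and RPS20 feature 7384 at -0.187 was at percentile 21.5. Levels of different spots depend on the probe as well as on the message, so this order describes the array and is no ranking of the genes. The features of one gene were far apart, with the 3 of RPS20 spread from percentile 21.5 to percentile 97.6.

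**Figure D1:**
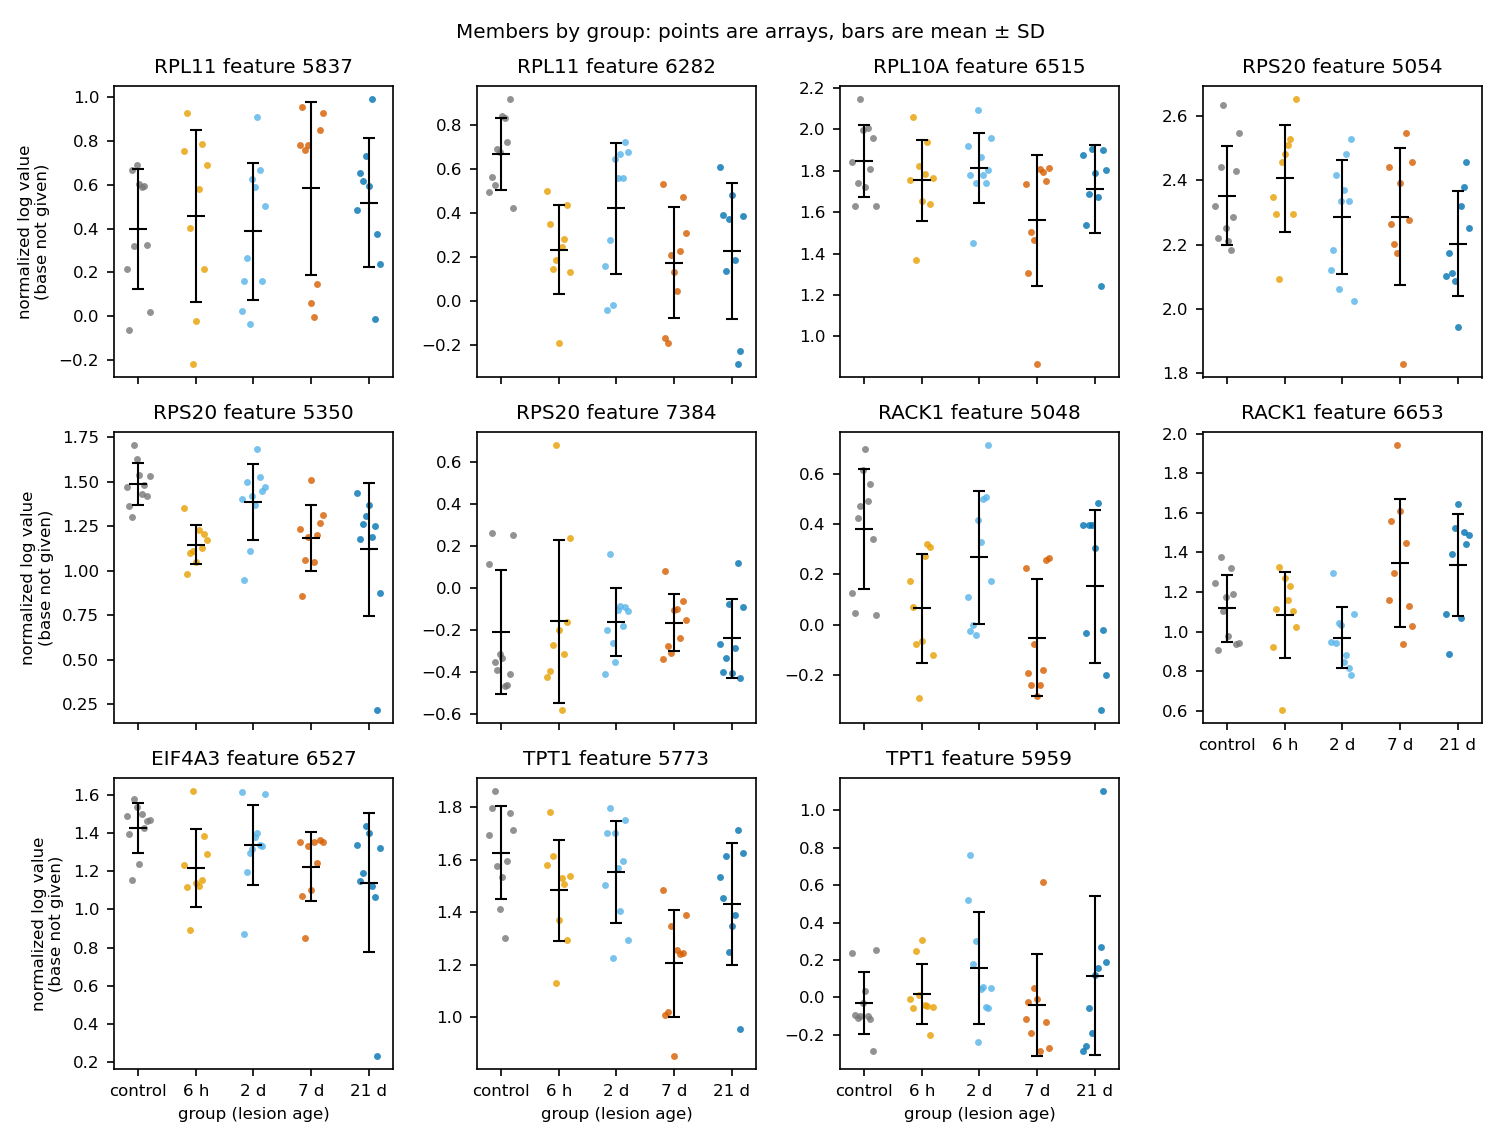
Normalized log value (base not given) of each of the 11 features by group, from control to the 21 d lesion. Points are arrays and bars are mean ± SD (n = 10 in controls and at 2 d, 9 at 6 h, 7 d and 21 d). RPL11 feature 6282 averaged 0.173 at 7 d and 0.667 in controls, and RPS20 feature 7384 stayed between -0.239 and -0.159 in mean in all groups.

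Over the whole course, 5 of the 11 features differed among the groups by limma's moderated F test on the 4 differences from control, against 22.6% of all features tested. They were RPL11 feature 6282 (adjusted p = 0.00247), TPT1 feature 5773 (0.0039), RPS20 feature 5350 (0.00655), RACK1 feature 6653 (0.0176) and RACK1 feature 5048 (0.0436). EIF4A3 feature 6527 (adjusted p = 0.109), RPL10A feature 6515 (0.226), RPS20 feature 5054 (0.484), TPT1 feature 5959 (0.713), RPL11 feature 5837 (0.789) and RPS20 feature 7384 (0.991) did not pass. Of the 4 genes with more than 1 feature, only RACK1 had more than 1 that passed, with 7 d differences from control of -0.42 for feature 5048 and 0.23 for feature 6653, the second not past the test and of the other sign without normalization between arrays. The F test of RACK1 feature 5048 fell short without pig D, E, F, G, H, I or J (adjusted p from 0.0547 to 0.169) and with the 6 h array of pig F put back (adjusted p = 0.0516), and that of RACK1 feature 6653 without pig F, I or K (adjusted p from 0.0583 to 0.0694).

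Against control, the clearest pattern was a set of lower values at 7 d. At that age 5 of the 11 features fell and 0 rose by limma (7 had an unadjusted p below 0.05, as did 34.9% of all), where 14.6% of all features fell and 10.7% rose. The falls were in RPL11 feature 6282, TPT1 feature 5773, RACK1 feature 5048, RPS20 feature 5350 and RPL10A feature 6515. At 6 h 2 features fell and 0 rose (4 at an unadjusted p below 0.05), where 4.87% of all features fell, 6.92% rose and 27.0% had such an unadjusted p. At 21 d 3 fell and 0 rose (4 at an unadjusted p below 0.05), where 8.23% of all fell, 6.5% rose and 26.9% had such an unadjusted p. At 2 d 0 features were called in either direction by limma (1 at an unadjusted p below 0.05, as for 8.91% of all), and 0.734% of all features were called, every one of them higher (0.0% lower). The median of the 11 differences was -0.08 at 6 h, beside -0.02 over all features, and -0.07 beside -0.02 at 2 d. It was -0.23 beside -0.01 at 7 d, and -0.14 beside -0.001 at 21 d. All these comparisons share the control samples. The genes were chosen with earlier results of these data known, so the counts beside the shares of all features only describe the members.

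**Figure D2:**
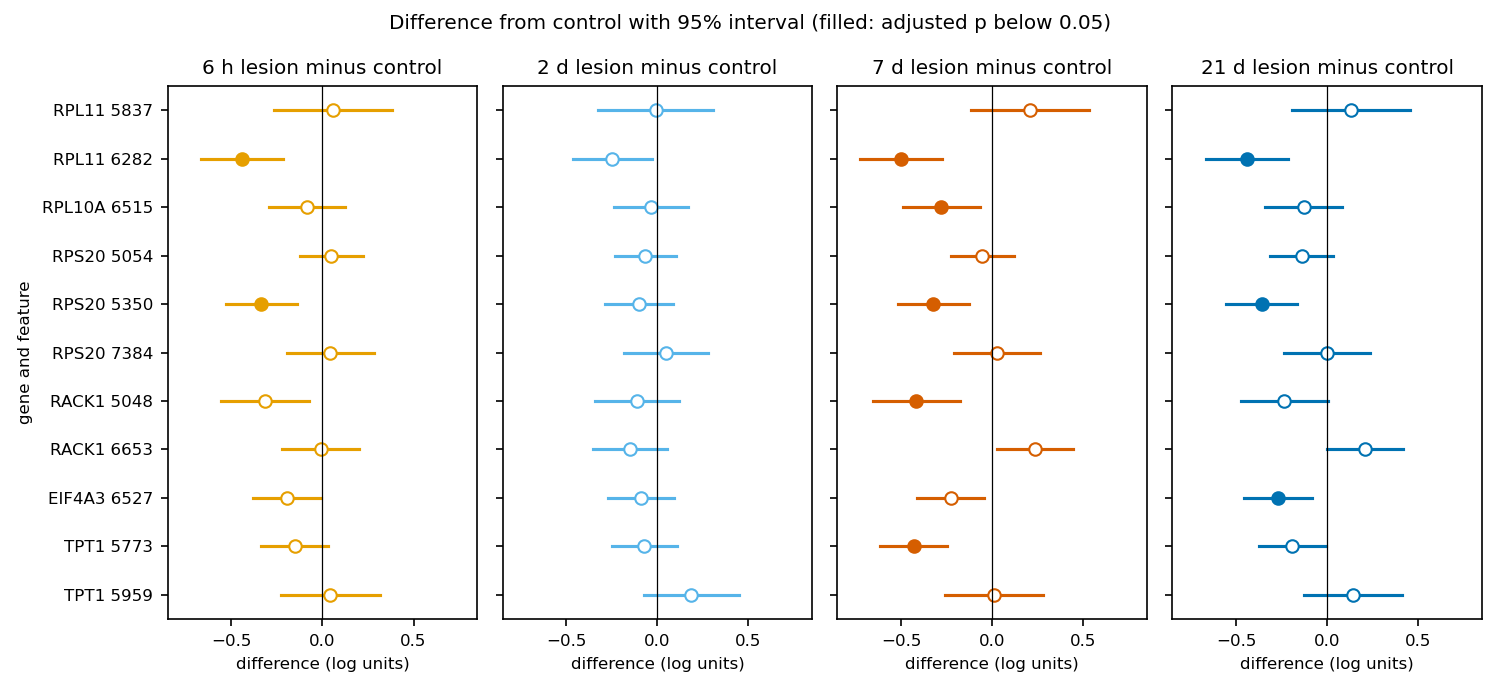
Difference from control in log units with its 95% interval for each of the 11 features (rows) at each lesion age (panels); filled points have an adjusted p below 0.05. All filled points lie left of 0: the 6 h panel has 2, the 2 d panel 0, the 7 d panel 5 and the 21 d panel 3.

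The proteins of the large subunit come first. RPL11 feature 6282, which carries the symbol of a protein that also binds the p53 regulator MDM2, was lower at 3 of the 4 ages. Its values ran from -0.19 to 0.499 in 6 h lesions (median 0.244), from -0.043 to 0.723 after 2 d (median 0.556), from -0.193 to 0.531 after 7 d (median 0.208) and from -0.288 to 0.606 after 21 d (median 0.372), against 0.423 to 0.915 in controls (median 0.682). Every lesion group overlapped the controls. The difference from control was -0.44 at 6 h (SE 0.111, adjusted p = 0.0064 by limma), -0.50 at 7 d (SE 0.111, adjusted p = 0.000756) and -0.44 at 21 d (SE 0.111, adjusted p = 0.00589). It was below 0 in 8 of 9 pigs at each of these ages, and pig C went the other way at all of them, with 0.499, 0.531 and 0.606 in its lesions and 0.494 in its control. At 2 d it was -0.25 (95% interval -0.47 to -0.03, adjusted p = 0.438), with 9 of 10 pigs below their control. This feature kept its call at 6 h, 7 d and 21 d when any single pig was left out (adjusted p up to 0.0407).

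The second feature of RPL11, feature 5837, gave a different picture. Its mean ± SD was 0.397 ± 0.274 in controls, 0.458 ± 0.393 for 6 h lesions, 0.387 ± 0.314 after 2 d, 0.585 ± 0.395 after 7 d and 0.519 ± 0.293 after 21 d. Its difference from control at 7 d was 0.21 (95% interval -0.12 to 0.53, adjusted p = 0.394 by limma). Under 1 of the 22 alternatives, with arrays weighted by quality, it was called higher than control at 7 d (adjusted p = 0.0214 by limma). Its residual SD of 0.348 was at percentile 92.2 of all features, so its intervals are wide. Across the 47 arrays the RPL11 features correlated at r = 0.221, and at 0.434 after the group means were taken out.

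RPL10A feature 6515, for another protein of the large subunit, was called at 7 d alone. Its 7 d values ran from 0.866 to 1.81 (median 1.73), against 1.63 to 2.14 in controls (median 1.82). Pig G was lowest at 7 d, with 0.866 in its lesion and 1.996 in its control. The difference was -0.28 (SE 0.104, adjusted p = 0.0428 by limma), with 7 of 9 pigs below their control. Without pig G it was -0.17 (adjusted p = 0.199), and the call also ended without pig C, D, E, F or K (adjusted p from 0.0517 to 0.135) and with the 6 h array of pig F put back (-0.27, adjusted p = 0.275). At the other ages RPL10A differed from control by -0.08, -0.03 and -0.13 (6 h, 2 d and 21 d, adjusted p from 0.454 to 0.894).

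In the small subunit, RPS20 feature 5350 was lower at 3 ages. Its values ran from 0.979 to 1.35 in 6 h lesions (median 1.13), from 0.945 to 1.68 after 2 d (median 1.43), from 0.857 to 1.51 after 7 d (median 1.20) and from 0.216 to 1.43 after 21 d (median 1.25), against 1.30 to 1.71 in controls (median 1.48). The 6 h lesions and the controls overlapped only at their edges. It differed from control by -0.34 at 6 h (SE 0.0962, adjusted p = 0.0168 by limma), -0.32 at 7 d (SE 0.0962, adjusted p = 0.0111) and -0.36 at 21 d (SE 0.0962, adjusted p = 0.00924), each in 9 of 9 pigs. At 2 d the difference was -0.10 (95% interval -0.29 to 0.09, adjusted p = 0.718), with 6 of 10 pigs below. The lowest value, 0.216, came from the 21 d array of pig J, and without that array the difference at 21 d was -0.24 (SE 0.0747, adjusted p = 0.0256). The call at 6 h ended without pig H (-0.32, adjusted p = 0.051), and those at 7 d and 21 d ended with the 6 h array of pig F put back (-0.32, adjusted p = 0.104, and -0.35, adjusted p = 0.101).

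The other RPS20 features were flat by comparison. RPS20 feature 5054, the brightest member, averaged 2.35 ± 0.154 (SD) in controls, 2.41 ± 0.167 for 6 h lesions, 2.29 ± 0.178 after 2 d, 2.29 ± 0.214 after 7 d and 2.20 ± 0.163 after 21 d. Its largest difference from control was -0.14 at 21 d (95% interval -0.31 to 0.03, adjusted p = 0.301 by limma). RPS20 feature 7384 differed from control by between -0.003 and 0.05 at the 4 ages (adjusted p from 0.868 to 0.991), with a 95% interval of -0.21 to 0.26 at 7 d. The correlations among the 3 RPS20 features over 47 arrays were 0.0814, 0.180 and 0.0249.

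The RACK1 features, for the scaffold on the small subunit, did not move alike. RACK1 feature 5048 ran from -0.281 to 0.265 at 7 d (median -0.178), against 0.0378 to 0.697 in controls (median 0.448). The groups overlapped, since 3 lesions, those of pigs C, K and L, lay above 0.2. The difference was -0.42 (SE 0.118, adjusted p = 0.00755 by limma), with 7 of 9 pigs below their control, and it held its call when any single pig was left out (adjusted p up to 0.0352). At 6 h it was -0.32 (95% interval -0.56 to -0.08, adjusted p = 0.074), at 2 d -0.11 (adjusted p = 0.725) and at 21 d -0.24 (adjusted p = 0.191).

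RACK1 feature 6653 was higher at 7 d than at 2 d. Its values ran from 0.94 to 1.94 at 7 d (median 1.30), against 0.783 to 1.29 at 2 d (median 0.946), and the groups overlapped. Controls ran from 0.906 to 1.38 (median 1.14). The difference of 7 d minus 2 d was 0.38 (SE 0.104, adjusted p = 0.00754 by limma), in 8 of 9 pigs. Against control it was 0.23 at 7 d (95% interval 0.02 to 0.44, adjusted p = 0.0973) and 0.21 at 21 d (95% interval -0.003 to 0.42, adjusted p = 0.191), neither past the test. This direction depends on the scaling: on table values without normalization between arrays RACK1 feature 6653 was lower than control, with -0.51 at 7 d (adjusted p = 0.0238) and -0.53 at 21 d (adjusted p = 0.0189), and the step between 2 d and 7 d shrank to 0.07 (adjusted p = 0.863). The RACK1 features correlated at r = -0.269 over 47 arrays.

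EIF4A3 feature 6527, for the helicase of the exon junction complex, passed the test at 21 d alone. Its values there ran from 0.23 to 1.44 (median 1.19), against 1.16 to 1.58 in controls (median 1.47). The value of 0.23 belongs to the 21 d array of pig J and lies 0.83 below the next lesion, that of pig I. The difference was -0.27 (SE 0.0918, adjusted p = 0.0406 by limma), with 8 of 9 pigs below their control. Without that array it was -0.16 (SE 0.0716, adjusted p = 0.139), while the differences at 6 h (-0.20, adjusted p = 0.0466) and at 7 d (-0.21, adjusted p = 0.0233) then passed. With all 47 arrays those of EIF4A3 were -0.19 at 6 h (adjusted p = 0.164) and -0.23 at 7 d (adjusted p = 0.0632), each with 8 of 9 pigs below, and at 2 d -0.09 (adjusted p = 0.725). The call of EIF4A3 at 21 d also ended without pig D, F, I, J or K (adjusted p from 0.056 to 0.179), with the 6 h array of pig F put back (adjusted p = 0.201), and without the animal as a replicate block (-0.29, adjusted p = 0.0571).

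TPT1 feature 5773 had the smallest adjusted p of the members. Its values ran from 0.854 to 1.48 at 7 d (median 1.24), against 1.30 to 1.86 in controls (median 1.64). Of the 9 lesions 6 lay below the lowest control, and the others were those of pigs C, F and L. The difference was -0.43 (SE 0.0906, adjusted p = 0.000381 by limma), with all 9 of 9 pigs below their control by 0.06 to 0.84. Feature 5773 was also lower at 7 d than at 2 d, by -0.36 (SE 0.0906, adjusted p = 0.00409), in 7 of 9 pigs, but this step was not called on table values without normalization between arrays (-0.66, adjusted p = 0.057) or in a fit of only the 2 groups (-0.34, adjusted p = 0.0832). At 6 h it was -0.15 (95% interval -0.34 to 0.03, adjusted p = 0.286), at 2 d -0.07 (adjusted p = 0.778) and at 21 d -0.19 (95% interval -0.38 to -0.01, adjusted p = 0.163). From 7 d to 21 d it differed by 0.24, higher at 21 d in 7 of 8 pigs, with an unadjusted p of 0.0144 and an adjusted p of 0.376 by limma. The fall at 7 d was called under all 22 alternatives, the only one of the members' 12 calls with that property, with differences from -1.19 to -0.30.

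TPT1 feature 5959 did not follow it. It differed from control by 0.01 at 7 d (95% interval -0.26 to 0.28, adjusted p = 0.97 by limma) and by 0.19 at 2 d (adjusted p = 0.659). The highest values of their own groups were 1.10 in the 21 d array of pig J (group median 0.118), 0.762 in the 2 d array of pig D and 0.618 in the 7 d array of pig I (group median -0.116). The TPT1 features correlated at r = -0.114 over 47 arrays.

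**Figure D3:**
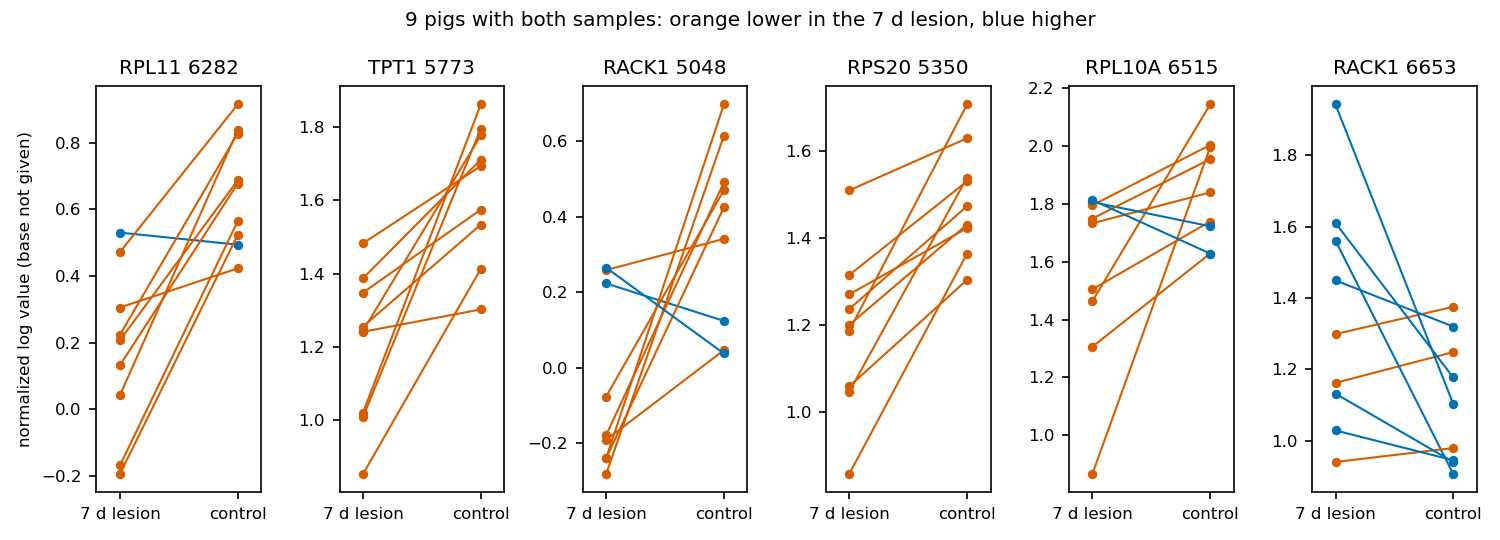
Normalized log value (base not given) in the 7 d lesion (left) and the control (right) of the 9 pigs that have both, for the 5 features that fell at 7 d and for RACK1 feature 6653. Lines join samples of a pig, orange where the lesion is lower and blue where it is higher. All 9 lines of TPT1 feature 5773 and of RPS20 feature 5350 are orange, and 6 of the 9 of RACK1 feature 6653 are blue.

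How strongly the falls held depended on what was done about the spread of values within arrays, which was smaller in lesions (above). With the array SD in the model TPT1 feature 5773 at 7 d was at -0.36 and stayed called (adjusted p = 0.0272), the 1 member feature called against control, where 4.51% of all features were then called lower at 7 d. RPL11 feature 6282 at 7 d was then at -0.22 (adjusted p = 0.244), RPS20 feature 5350 at -0.19 (adjusted p = 0.305), RACK1 feature 5048 at -0.13 (adjusted p = 0.553) and RPL10A feature 6515 at -0.13 (adjusted p = 0.548). The calls of RPL11 feature 6282 and RPS20 feature 5350 at 6 h and 21 d ended too, and so did that of EIF4A3 at 21 d, while the steps of RACK1 feature 6653 and TPT1 feature 5773 between 2 d and 7 d stayed called. On table values without normalization between arrays the count at 7 d was 8 of the 11 features lower, where 25.9% of all features were called lower, with TPT1 feature 5773 at -1.19, RPL10A feature 6515 at -1.13 and RPS20 feature 5350 at -1.07. RPS20 feature 5054 was among them, at -1.03 (adjusted p = 0.000789), against -0.06 after quantile normalization.

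**Figure D4:**
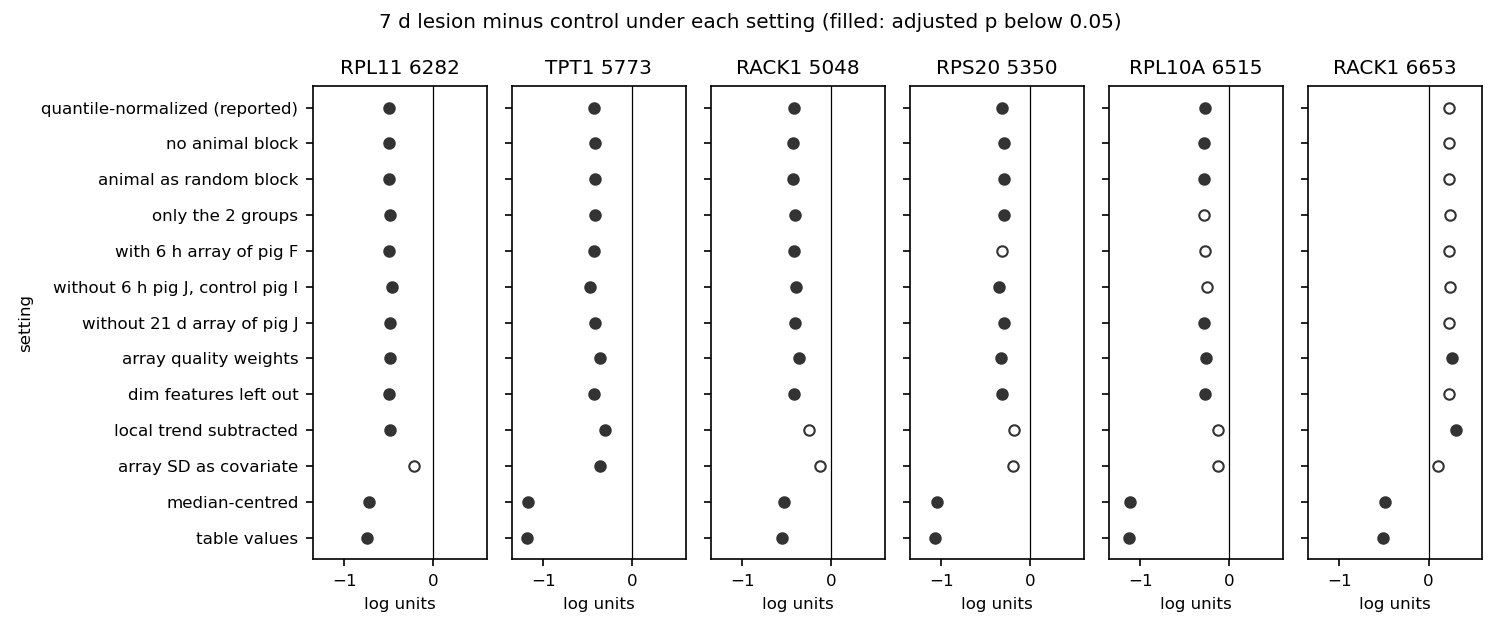
Difference of the 7 d lesion from control in log units (horizontal axis) under the reported setting and 12 alternatives (rows) for 6 features; filled points have an adjusted p below 0.05. TPT1 feature 5773 is filled in every row, RPL11 feature 6282 in all but the one with array SD, and RACK1 feature 6653 is at 0.23 as reported and at -0.51 on table values.

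With the features divided by level into 5 classes of 381 or 382, 30.1% of the brightest class (0.759 to 3.76 log units), which holds 6 of the 11 members, fell at 7 d, against 3.66% of the dimmest. Of the 5 falls 3 were in the brightest class. The class below the brightest (22.3% fell) holds RPL11 features 5837 and 6282, and the middle class (10.7% fell) holds RACK1 feature 5048 and TPT1 feature 5959. Values of neighbours on the feature list stand beside the members' own. Neighbours are partly shared between RACK1 feature 5048 and RPS20 feature 5054, and between RPL10A feature 6515 and EIF4A3 feature 6527. The values of such a pair are not separate. Among the 20 nearest tested features of RACK1 feature 5048 the median difference at 7 d was -0.19 and 6 fell. Around RPS20 feature 5350 it was -0.16 and 3 fell, and around TPT1 feature 5773 it was -0.12 and 3 fell. Around RPL10A feature 6515 it was -0.12 and 5 fell, beside an own difference of -0.28. RPL11 feature 6282 stood further from its neighbours, whose median was -0.04, with 6 of the 20 lower. Neighbours of some members that were not called at 7 d had low medians too. These were -0.14 around TPT1 feature 5959 (8 of the 20 lower, own difference 0.01) and -0.18 around RPL11 feature 5837 (6 lower, own difference 0.21). They were -0.16 around RPS20 feature 5054 (3 lower, own difference -0.06) and -0.16 around EIF4A3 feature 6527 (6 lower, own difference -0.23). Around RACK1 feature 6653 and RPS20 feature 7384 the medians were -0.01 and 0.10, with 0 lower. After a running median over neighbouring features was subtracted, RPL11 feature 6282 (-0.49, adjusted p = 0.00152) and TPT1 feature 5773 (-0.30, adjusted p = 0.00967) stayed called at 7 d. RACK1 feature 5048 (-0.25, adjusted p = 0.145), RPS20 feature 5350 (-0.18, adjusted p = 0.171) and RPL10A feature 6515 (-0.13, adjusted p = 0.45) did not, and RACK1 feature 6653 was then higher than control at 7 d (0.31, adjusted p = 0.0318). The calls of RPS20 feature 5350 at 6 h (adjusted p = 0.0907) and 21 d (adjusted p = 0.0756) and of EIF4A3 at 21 d (adjusted p = 0.22) ended too. The part of level and of place in these results was not tested further.

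**Figure D5:**
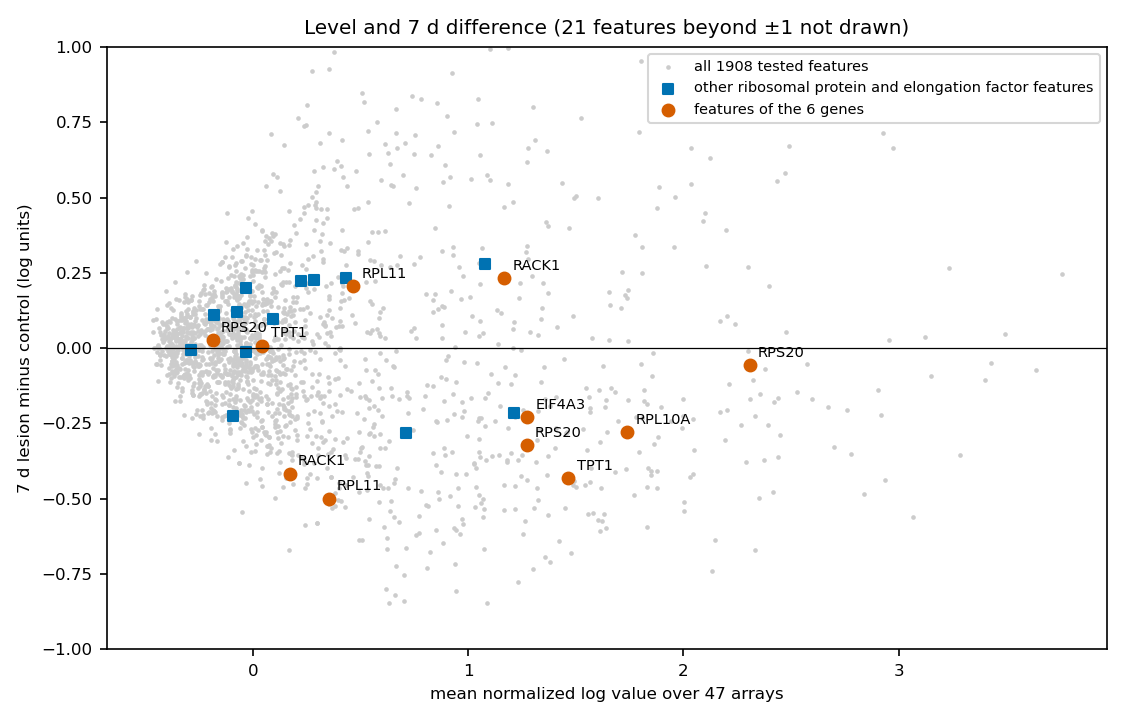
Mean normalized log value over 47 arrays (horizontal axis) and difference of the 7 d lesion from control in log units (vertical axis) for all 1908 features (grey, with 21 beyond 1 log unit not drawn), the 13 features of other translation genes (blue squares) and the 11 member features (orange circles, labelled by gene). The lowest orange point is RPL11 at -0.50, and the blue squares lie between -0.28 and 0.28.

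Other genes of translation on the array gave no called feature. The list of ribosomal proteins, translation factors and related genes held 13 further tested features of 11 genes, all of them ribosomal proteins except EEF1A1 and EEF1G, parts of the elongation factor that brings transfer RNA to the ribosome. Among the 13, limma called 0 at 7 d in either direction (2 had an unadjusted p below 0.05), against 25.4% of all features called. Those were RPL19 feature 5118, at -0.28 (unadjusted p = 0.0247, adjusted p = 0.0831) in 9 of 9 pigs, and RPS26, at 0.23 (unadjusted p = 0.022, adjusted p = 0.0772) in 7 of 9. The median of the 13 differences at 7 d was 0.11, with 8 above and 5 below 0, while the median over the 24 translation features with the members included was 0.001, with 12 on each side. EEF1G was at -0.22 (95% interval -0.48 to 0.05) and EEF1A1 at 0.11 (95% interval -0.09 to 0.31). At 6 h, 2 d and 21 d limma called 0 of the 13 (1, 1 and 0 had an unadjusted p below 0.05), against 11.8%, 0.734% and 14.7% of all features called. By the F test over the course 0 of the 13 passed, and their smallest adjusted p was 0.179, for RPSA. The 13 also differed from the members in level, from percentile 12.8 (RPSA) to percentile 88.3 (EEF1G). Only EEF1G and RPS21 of them were in the brightest of the 5 classes, which holds 6 of the 11 members. The part of level in this contrast was not tested.

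Between successive ages, 0 member features differed from 6 h to 2 d by limma (1 at an unadjusted p below 0.05, as for 17.9% of all), where 6.18% of all features differed, 1.52% higher and 4.66% lower. That was RPS20 feature 5350, higher at 2 d than at 6 h by 0.24 in 8 of 9 pigs (unadjusted p = 0.0186, adjusted p = 0.149). From 2 d to 7 d 2 were called, where 16.5% of all features were called (9.43% higher, 7.02% lower, 27.5% at an unadjusted p below 0.05), namely RACK1 feature 6653, higher at 7 d, and TPT1 feature 5773, lower at 7 d. A further 4 had an unadjusted p below 0.05 in that step, all with lower values at 7 d: RACK1 feature 5048 (-0.30, adjusted p = 0.0756), RPL11 feature 6282 (-0.25, adjusted p = 0.123), RPL10A feature 6515 (-0.25, adjusted p = 0.107) and RPS20 feature 5350 (-0.22, adjusted p = 0.115). From 7 d to 21 d 0 were called by limma (1 at an unadjusted p below 0.05, TPT1 feature 5773, and 8.54% of all), where 0.681% of all features were called, 0.157% higher and 0.524% lower. In all comparisons the groups of every member overlapped. Of all features, 2.46%, 0.262%, 4.66% and 1.42% had groups that did not overlap in the 6 h, 2 d, 7 d and 21 d comparisons with control, and 1.36%, 2.41% and 0.0524% in the successive steps between ages.

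Some pairs of the features that fell at 7 d also varied together across arrays, and others hardly did once group means were removed. Over 47 arrays the 10 pairs among these 5 features had correlations from 0.0995 to 0.75, with a median of 0.451, and after the group means were removed they ran from -0.10 to 0.667, with a median of 0.283. The 55 pairs among all 11 features had a median of 0.039, beside -0.00528 for the 21115 pairs of features with a symbol. These arrays share animals and normalization, and the 5 features were picked for a common fall, so the values only describe them. RPS20 feature 5350 was the gene feature most like EIF4A3 feature 6527 and the reverse, at r = 0.729 over 47 arrays.

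The features with a symbol most like the other members were as follows. RPL11 feature 6282 was most like a feature of ENO3, a glycolytic enzyme of muscle, at r = 0.884 over 47 arrays, and then like HTT at 0.813 and RACK1 feature 5048 at 0.75. RACK1 feature 5048 was most like 2 features of CKM, the muscle creatine kinase, at r = 0.807 and r = 0.772. TPT1 feature 5773 was nearest to MAPK12 at 0.67 and TPI1 at 0.609, and RPL10A feature 6515 to MYLPF at 0.61 and CAPNS1 at 0.608. RACK1 feature 6653 was nearest to XIRP2, at r = 0.499, which dropped to 0.106 once the group means were removed. TPT1 feature 5959 was nearest to a feature of MYH1 at 0.829, RPS20 feature 7384 to one of TNNC2 at 0.716 and RPL11 feature 5837 to B2M at 0.726. RPS20 feature 5054 had no close match, its highest correlation being 0.422 with CFL1. The 6 pairs of features that share a symbol had a median of 0.0531, from -0.269 to 0.221.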

How the data were processed

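Total RNA of 48 muscle samples was hybridised as radioactively labelled cDNA, 1 array per sample, and read from imaging plates at 25 micrometres with a fixed spot grid, per the labels and the design text. The deposited log values (unit other than counts or intensities; base, centring and choice of features not given in the sources used here) filled 90 columns. Both columns of a sample were averaged: 41 of 42 pairs were identical. In R 4.3.3, limma 3.58.1 quantile-normalized 47 arrays (array medians of the table differed by up to 0.112) and fitted group and animal over all groups, with Benjamini-Hochberg adjustment over 1908 features per comparison and a call at an adjusted p below 0.05. The fit was tested on simulated data of independent normal values. These had no animal effect, no difference in array spread and no trend along the feature list, so that test says nothing about those. Intervals are 95% intervals of single differences. Figures used matplotlib 3.10.9. Arrays give no counts, so their number limits the precision. Where nothing says otherwise, an array stands for 1 site of 1 animal. The p-values rest on the spread left after group and animal were fitted over all groups. Steady differences between animals are taken out of it.

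The animal block rests on the design, in which each pig carried all sites: deviations from group means correlated at a median of -0.0236 within and -0.00355 between animals. The members, the list of other translation genes and the markers were chosen with earlier results of these data known. By the rule for named genes, all member features, all tested features on the translation list and the 3 most correlated features with a symbol per member feature could be named. All 16 listed member features matched the current gene table. No sequence is printed.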

Additional observations from a re-analysis of the deposited data

Results flagged for a closer look

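In 4 of 55 groups of 9 or 10 arrays, a member feature had 1 array set apart from the others by more than the 95% limit of Dixon's test, which chance gives in about 1 in 20 groups. In 3 of the 4 it was the 21 d array of pig J: EIF4A3 feature 6527 was at 0.2304 there, RPS20 feature 5350 at 0.2165 (both the lowest) and TPT1 feature 5959 at 1.103 (the highest). That array also had the lowest correlation with the others (r = 0.718) among the 47. The other was the 7 d array of pig I, highest for TPT1 feature 5959 at 0.6179.

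The difference from control changed between 2 d and 7 d, by limma's test of the step itself, for RACK1 feature 6653 (0.3827, higher at 7 d, adjusted p = 0.00754, in 8 of 9 pigs) and for TPT1 feature 5773 (-0.3605, lower at 7 d, adjusted p = 0.00409, in 7 of 9 pigs). On table values without normalization between arrays neither step was called (0.07, adjusted p = 0.863, and -0.66, adjusted p = 0.057, by limma).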

How the results depend on the processing

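The 12 called member differences kept their sign under all 264 values from alternatives, and 221 of these were called. On table values without normalization between arrays all features together gave 496 calls for 6 h lesions, 28 for 2 d, 744 for 7 d and 708 for 21 d against control, and 40, 127 and 0 in the steps between ages. Median-centred arrays gave 518, 57, 782 and 742, and 43, 177 and 1 in the steps. Array SD in the model gave 265 at 7 d, 111 at 21 d and 258 by the F test. Array weights gave 615 at 6 h, 53 at 2 d, 315 from 6 h to 2 d and 706 by the F test. Subtracting the local trend gave 167 at 21 d and 7 from 7 d to 21 d. The 6 h array of pig F gave 177 at 21 d and 5 from 7 d to 21 d. Fitting only the 2 groups gave 178 at 21 d, 209 from 2 d to 7 d and 4 from 7 d to 21 d. With the sample that held a copied column (pig J, 6 h) and its source (pig I, control) both left out there were 148 at 6 h. Leaving out 1 pig gave 169 (pig I) to 325 (pig C) at 21 d and 3 to 20 from 7 d to 21 d. With no replicate block the count at 7 d was 489, against 484, and among the calls of members the change was the loss of EIF4A3 at 21 d and the gain of RACK1 feature 5048 from 2 d to 7 d. In a fit of only the 2 groups RPL10A at 7 d (adjusted p = 0.101 by limma), EIF4A3 and RPS20 feature 5350 at 21 d (0.136 and 0.0661) and TPT1 feature 5773 from 2 d to 7 d (0.0832, and 0.057 on table values) were not called. The cause of these changes was not tested.

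For the 65 differences of members not called as reported, 113 of 1423 values turned sign. Those of differences called in some alternative were as follows. Table values and median-centred arrays put RPS20 feature 5054 at -0.61 and -0.60 at 6 h, RPL11 feature 5837 at -0.074 and -0.056 at 7 d, and RACK1 feature 6653 at -0.51 and -0.49 at 7 d and -0.53 and -0.50 at 21 d. Array SD put RPL10A at 0.017 at 6 h and 0.018 at 21 d, and RACK1 feature 5048 at 0.042 at 21 d. The local trend put RPL10A at 0.051 and RACK1 feature 6653 at 0.068 at 6 h, and RPS20 feature 5054 at 0.11 at 7 d. Array weights put RACK1 feature 6653 at 0.044 at 6 h, and leaving out 1 pig moved it between -0.050 and 0.062 there. Leaving out the 21 d array of pig J was chosen after seeing the data.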
